A study of Macaca mulatta with 30 samples.

Results

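Lungs of fetal rhesus macaques delivered 4 h after maternal treatment with the clinical drug were compared directly with lungs delivered 5 days after the same treatment. These are 6 of the 30 RNA-sequencing samples of the series, 3 animals at each time, and were chosen by drug, tissue and delivery time alone. The clinical drug is Celestone Soluspan, a mixture of betamethasone phosphate and betamethasone acetate, given to the pregnant mother as 1 intramuscular injection of 0.25 mg/kg. All fetuses were wild type, and RNA came from frozen whole lung. The labels give 1 range, gestational days 124 to 130, for every lung sample, while hippocampus samples labelled with the numbers of the 5-day animals give days 136, 133 and 133, so the range cannot be read as the age of these lungs at delivery and a difference in age between the times was not tested. Those hippocampus labels also name betamethasone acetate where the lung labels name Celestone, and the lung labels were followed. The paper lists mean ages at delivery by group, the later clinical drug group being older than the early one, and calls the groups comparable. For the clinical drug it lists only male fetuses in the early group and both sexes in the larger later group. It does not give the sex of the sequenced later animals. A difference in sex between the times was not tested and cannot be told apart from time here. Lungs of 3 saline controls are printed beside the 2 times as the untreated level and entered no test here. The other steroid arm, betamethasone acetate alone (Beta-Ac, 0.125 mg/kg) with 3 animals at 6 h and 3 at 5 days, shares no animal with the 6 lungs compared and is given beside them.

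Betamethasone is a synthetic glucocorticoid that crosses the placenta and binds the glucocorticoid receptor, a transcription factor that acts directly on target genes within hours. Some of these targets encode feedback inhibitors of the receptor, clock components and enzymes that shift cells from glucose to fat as fuel. In the preterm lung, antenatal steroids are given because they thin the airspace walls, raise surfactant and speed fluid clearance, and they also quieten immune signalling. A comparison of 4 h with 5 days sets the lung hours after the injection against the lung days after it.

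The 4 h lungs held 45033799, 14073002 and 17037335 counted reads, the 5-day lungs 21738237 to 28994499 and the saline lungs 14351859 to 19619580. All 6 libraries carried lung transcripts: NKX2-1, the transcription factor of lung epithelium, lay between 227 and 289 CPM (reads of the gene scaled to the library's effective total), and the surfactant genes SFTPB and SFTPC and the alveolar type I gene AGER were abundant. The 5-day lungs resembled each other more than the 4 h lungs did, with a mean Euclidean distance of 62.6 on the log2 CPM scale within 5 days, 94.7 within 4 h and 99.7 between the times. The between-time distance exceeded the within-time distance by 21 in the observed grouping, the largest of the 10 possible splits (exact one-sided permutation p = 0.1, the smallest that 3 against 3 allows). Animal 2 of the 4 h group, the shallowest library, stood farthest from the 5-day lungs (112 to 116) and animal 1, the deepest, nearest (83.5 to 90.6). The 4 h animals carry study numbers that begin with 15 and the 5-day animals numbers that begin with 16, so whatever goes with that numbering cannot be told apart from time. Values below are given in the order of animals 1, 2 and 3 of each group.

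Of 16837 genes tested with edgeR's quasi-likelihood test, 1720 (10.2%) differed between 4 h and 5 days at a fold of at least 1.5, p under 0.05 and Storey q under 0.1. Among them, 731 (4.34% of the genes tested) were higher at 4 h and 989 (5.87%) were lower at 4 h. The median log2 difference (4 h minus 5 days throughout) was 1.03 among the higher and -1.02 among the lower genes, and 101 were at least 4-fold higher and 91 at least 4-fold lower. The 3 animals of one time lay wholly above or below the 3 of the other for 1629 of the 1720 (94.7%), where 14.5% of all tested genes had every 4 h animal above and 14.7% every 4 h animal below. In 625 of the 731 higher genes (85.5%) and 807 of the 989 lower genes (81.6%), the saline mean was nearer to the 5-day mean than to the 4 h mean. The share over all tested genes is not given here, so whether these shares are unusual was not tested. The 4 h animals were also the more spread, with a median SD of log2 CPM over tested genes of 0.236 against 0.159 at 5 days. Leaving out 1 animal at a time gave 472 to 910 higher and 437 to 1645 lower genes, depending on which animal was left out. The lower count was 437 without the first 5-day animal, 453 without the second and 593 without the third, and it was 1645 without animal 1 of the 4 h group.

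**Figure D1:**
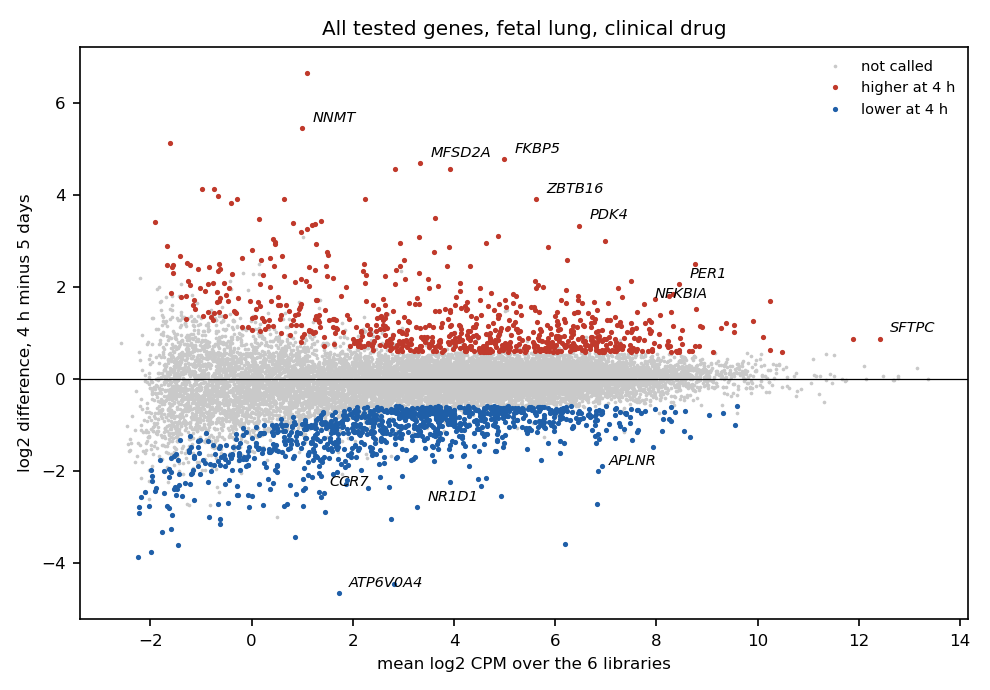
Each point is 1 of 16837 tested genes, with its mean log2 CPM over the 6 libraries on the horizontal axis and its log2 difference, 4 h minus 5 days, on the vertical axis. The 731 red genes were called higher and the 989 blue genes lower at 4 h, grey genes were not called, and FKBP5 (4.78), NNMT (5.45) and ATP6V0A4 (-4.65) lie near the edges of the cloud.

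Genes listed as glucocorticoid targets had the highest median of the 27 gene lists tested. Of 30 such genes tested, 20 were higher at 4 h and 10 were not called (66.7% called, beside 10.2% of all tested genes), with a median log2 difference of 1.2 (median of all genes tested, -0.015). This list, like the others below, was chosen with earlier results of these data known. Its share and median therefore describe these lungs and are not independent evidence. FKBP5 (ENSMMUG00000011520), a co-chaperone that lowers the receptor's affinity for steroid, stood at 213, 118 and 173 CPM at 4 h, at 6.04, 5.71 and 6.56 CPM at 5 days and at 5.7, 5.18 and 5.68 CPM in saline. Every 4 h lung was thus far above every 5-day lung, and the 5-day values were close to those of saline (log2 difference 4.78, SE 0.23, edgeR q = 8.18e-05). ZBTB16 (ENSMMUG00000007085), a zinc-finger repressor known as an early steroid target, was at 260, 123 and 208 CPM at 4 h and at 10.3, 10.7 and 18.3 CPM at 5 days. Its saline values of 11.8, 12.1 and 4.08 CPM overlapped those at 5 days, and it was higher at 4 h (log2 difference 3.91, SE 0.33, edgeR q = 0.000595).

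TFCP2L1, an epithelial transcription factor, was at 27, 15.5 and 12.8 CPM at 4 h against 1.87, 0.93 and 0.943 CPM at 5 days (log2 difference 3.91, SE 0.40). NFKBIA, the inhibitor that holds NF-kappaB in the cytoplasm, was at 402, 353 and 399 CPM at 4 h, at 112, 108 and 150 CPM at 5 days and at 112 to 135 CPM in saline (log2 difference 1.64, SE 0.14, edgeR q = 0.000595). MERTK, a receptor for the uptake of dying cells, was at 106, 67.6 and 76 CPM at 4 h against 27.4, 25.1 and 31.4 CPM at 5 days (log2 difference 1.57, SE 0.18). None of these 3 genes had overlapping groups. Other members passing the test included the arrestin-domain gene ARRDC2 (2.58), the transcription factor KLF15 (2.05), the hypoxia-factor relative HIF3A (1.98), the secreted protein CRISPLD2 (1.72), the stress gene GADD45B (1.68) and the amine oxidase MAOA (1.65), all as log2 differences. The smallest were the thiamine transporter SLC19A2 (0.65) and the repressor BCL6 (0.76).

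The list was not uniform. SGK1, the kinase that keeps the epithelial sodium channel at the membrane, was at 132, 112 and 188 CPM at 4 h and at 82.7, 152 and 58 CPM at 5 days, and the overlapping groups gave no call (log2 difference 0.56, SE 0.33, edgeR q = 0.223). CD163, a scavenger receptor of macrophages, was called (log2 difference 1.54, SE 0.47), yet animal 2 at 4 h had 10.7 CPM where animals 1 and 3 had 50.4 and 38 CPM, and the 5-day animals had 11, 14.2 and 9.01 CPM. Between 19 and 20 of the 30 genes were called higher when any 1 animal was left out.

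**Figure D2:**
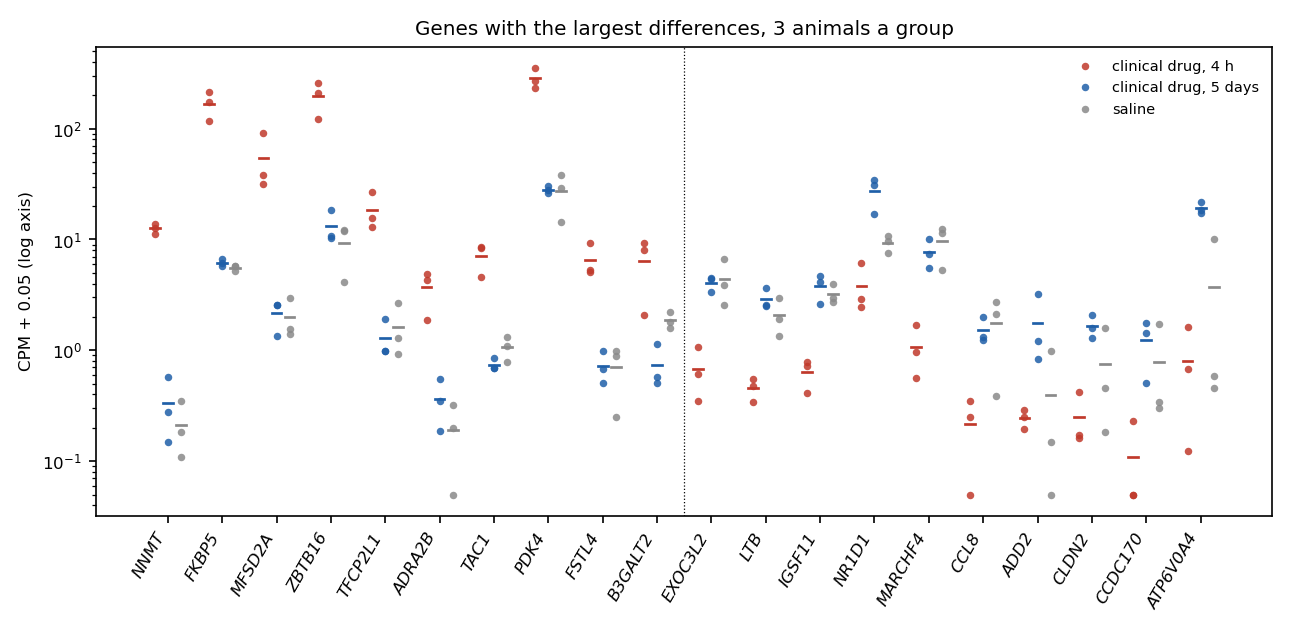
CPM of each animal (a constant of 0.05 added, log axis) for the 10 genes with a symbol with the largest positive log2 difference, left of the dotted line, and the 10 with the largest negative one, right of it. Points are animals, short bars are group means, and red, blue and grey are 4 h, 5 days and saline: the 3 red and 3 blue points of a gene do not overlap, as the rule for choosing these genes requires, and grey lies near blue for most genes but not, for example, for NR1D1, ADD2 or ATP6V0A4.

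Of 14 tested genes for receptors and steroid-converting enzymes 1 was called, a share of 7.14% that was near the 10.2% of all tested genes. It was NR3C2, the mineralocorticoid receptor, at 7.57, 4.11 and 5.62 CPM at 4 h and 10.8, 13.7 and 14.1 CPM at 5 days (log2 difference -1.14, SE 0.25, edgeR q = 0.0205). NR3C1, the glucocorticoid receptor itself, was at 80.6, 61.2 and 64.3 CPM at 4 h and 102, 110 and 90 CPM at 5 days. Its groups did not overlap and its q was 0.0287 by edgeR, but its log2 difference of -0.55 was under the 1.5-fold limit. HSD11B2, which inactivates cortisol, was at 48.5, 95.2 and 68.3 CPM at 4 h and at 56.3, 54.4 and 36 CPM at 5 days, with overlapping groups and no call (edgeR q = 0.162).

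Fuel-use genes of the fasting response held the largest difference of a gene with a symbol. NNMT (ENSMMUG00000007086), which methylates nicotinamide, was at 13.8, 11.1 and 12.8 CPM at 4 h, at 0.229, 0.0996 and 0.528 CPM at 5 days and at 0.0582 to 0.299 CPM in saline (log2 difference 5.45, SE 0.46, edgeR q = 0.000582). Its 5-day values rest on 5, 3 and 14 reads, so the direction is clear and the size of the fold is coarse. PDK4 (ENSMMUG00000021389), the kinase that shuts glucose carbon out of the mitochondrion, rested on far more reads: 350, 233 and 268 CPM at 4 h, 30.1, 26.4 and 27.6 CPM at 5 days and 38.1, 14.3 and 29.3 CPM in saline (log2 difference 3.34, SE 0.16, edgeR q = 8.18e-05). Both genes separated the times completely.

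In all, 7 of 27 tested fuel-use genes were higher at 4 h and 1 was lower (29.6% called, beside 10.2% of all tested genes). Also higher were the forkhead factors FOXO3 (1.46) and FOXO1 (0.97), the glucose transporter SLC2A1 (1.15) and the glycolytic regulator PFKFB3 (0.72), as log2 differences. UCP2, an uncoupling protein of the mitochondrion, was lower at 4 h, at 9.78, 7.04 and 7.74 CPM against 14.4, 23.5 and 19.6 CPM at 5 days (log2 difference -1.22, SE 0.22). Genes of fat oxidation proper, CPT1A (0.13), CPT1B (0.26), ACADM (0.07) and HADHA (0.18), were not called, and the list's median log2 difference was 0.16.

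Among 20 tested clock genes, 2 were higher and 3 lower at 4 h (25% called, beside 10.2% of all tested genes). PER1 (ENSMMUG00000021798), a repressor of the clock with steroid response sites, was at 814, 682 and 707 CPM at 4 h, at 169, 107 and 251 CPM at 5 days and at 95.7 to 198 CPM in saline (log2 difference 2.07, SE 0.27, edgeR q = 0.00299). HLF, an activator of the same family as DBP, was also higher (1.02). NR1D1 (ENSMMUG00000002933), the REV-ERB-alpha repressor, was at 6.11, 2.42 and 2.84 CPM at 4 h, at 31.1, 17.1 and 34.3 CPM at 5 days and at 9.6, 10.6 and 7.57 CPM in saline (log2 difference -2.79, SE 0.39, edgeR q = 0.00393). For this gene the saline lungs lay between the times, and their mean was nearer to the 4 h mean.

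The same order of 4 h, saline and 5 days held in the means of NR1D2, the second REV-ERB gene, and of DBP, an output activator. NR1D2 was at 24, 7.77 and 5.26 CPM at 4 h against 34, 37.4 and 28.4 CPM at 5 days, with saline at 14.2 to 17 CPM (log2 difference -1.38, SE 0.48). DBP was at 22.7, 20 and 12.8 CPM against 54.4, 45.1 and 39.7 CPM, with saline at 27.8 to 29.1 CPM (log2 difference -1.32, SE 0.22). The core activators CLOCK (0.10), NPAS2 (0.21) and ARNTL (0.69), and PER2 (0.70) and PER3 (-0.83), were not called. ARNTL, PER2 and PER3 were over the 1.5-fold limit and failed on p or q, so a difference in them is left undecided.

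**Figure D3:**
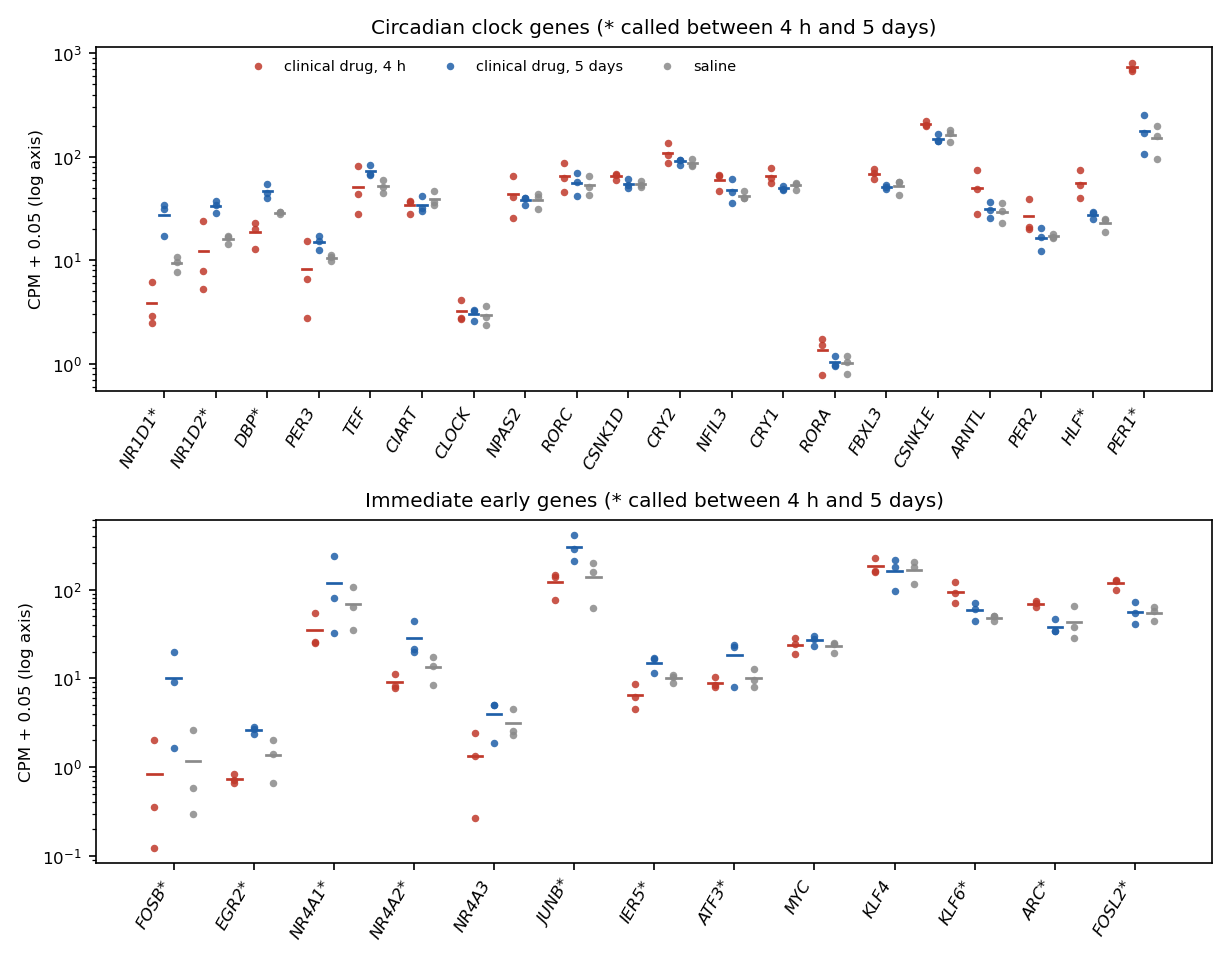
CPM of each animal (0.05 added, log axis) for the 20 tested clock genes above and the 13 tested immediate early genes below, ordered by log2 difference, with red for 4 h, blue for 5 days, grey for saline and bars for group means. Stars mark called genes: PER1 is higher at 4 h than in both other groups, while the blue points of NR1D1, NR1D2 and DBP lie above saline as well as above 4 h.

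Surfactant and alveolar type II cell genes differed in both directions, 6 higher and 4 lower at 4 h of 24 tested (41.7% called, beside 10.2% of all tested genes). MFSD2A (ENSMMUG00000011264), a transporter of lysophospholipid, had by far the largest difference of the list, at 92, 31.7 and 37.9 CPM at 4 h, 2.51, 1.29 and 2.49 CPM at 5 days and 1.35 to 2.94 CPM in saline (log2 difference 4.71, SE 0.48, edgeR q = 0.00115). CHKA, the first enzyme of phosphatidylcholine synthesis from choline, was the tightest, at 198, 185 and 190 CPM against 66.2, 70.7 and 64.6 CPM (log2 difference 1.51, SE 0.09). Lipoprotein lipase LPL (1.66), the lamellar body gene LAMP3 (1.17) and the transcription factor ETV5 (0.75) were also higher at 4 h. The 4 lower genes were PCYT1B, an isoform of the rate-setting enzyme of the same lipid pathway, FOXA2 (-0.75), SREBF1 (-0.74) and CEBPA (-0.72), the latter 3 being transcription factors. PCYT1B was at 2.41, 2.13 and 3.75 CPM at 4 h and at 7.22, 5.94 and 5.02 CPM at 5 days (log2 difference -1.13, SE 0.29). Its call was lost without the first 5-day animal (edgeR q = 0.142) and without the second (edgeR q = 0.118). When 1 animal was left out, the list had 5 to 8 higher and 1 to 4 lower genes, the fewest lower without the first 5-day animal.

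The surfactant proteins themselves did not move as one. SFTPC, a hydrophobic surfactant protein, was at 9387, 5585 and 7511 CPM at 4 h, at 4645, 3200 and 4375 CPM at 5 days and at 2648, 2685 and 5055 CPM in saline. It was called higher at 4 h (log2 difference 0.88, SE 0.21, edgeR q = 0.0275), but without the second 5-day animal the call was lost (0.73, edgeR q = 0.106). SFTPB, which shares that role, was at 6020, 4031 and 4649 CPM against 4768, 3398 and 3802 CPM and was not called (log2 difference 0.30, SE 0.18). SFTPD, a collectin of airway defence, was at 1168, 928 and 1053 CPM against 1374, 1312 and 1127 CPM and was not called either (-0.28, SE 0.12). ABCA3, the lipid pump of the lamellar body, separated the times, at 426, 326 and 369 CPM against 313, 209 and 243 CPM, and stayed just under the fold limit (log2 difference 0.55, SE 0.16, edgeR q = 0.0535).

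Alveolar type I genes included one of the best separated transcripts. HOPX, a homeodomain cofactor of the type I cell, was at 362, 543 and 487 CPM at 4 h, at 140, 129 and 143 CPM at 5 days and at 174 to 222 CPM in saline (log2 difference 1.75, SE 0.15, edgeR q = 0.000595). CLIC5, a chloride channel family protein, went the other way, at 154, 207 and 246 CPM at 4 h and at 313, 334 and 300 CPM at 5 days (-0.64, SE 0.16). The type I genes AGER (0.32), PDPN (0.02), CAV1 (0.10) and CLDN18 (0.57) were not called, and 3 of the 14 tested genes were (21.4%, beside 10.2% of all tested genes).

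For lung fluid clearance, 5 of 25 tested genes were higher and 2 lower at 4 h (28% called, beside 10.2% of all tested genes). SCNN1A, the alpha subunit of the epithelial sodium channel, was at 321, 389 and 305 CPM at 4 h, at 120, 158 and 156 CPM at 5 days and at 125 to 200 CPM in saline (log2 difference 1.22, SE 0.14, edgeR q = 0.00166). SLC26A9, an anion transporter of airway epithelium, was at 35.4, 51.1 and 51.2 CPM against 12.3, 9.7 and 12.9 CPM (1.98, SE 0.18).

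The beta and gamma subunits of the sodium channel were less even than the alpha subunit. SCNN1G was at 57.9, 129 and 125 CPM at 4 h against 45.4, 36.5 and 64 CPM at 5 days, and it was called with overlapping groups (log2 difference 1.09, SE 0.32, edgeR q = 0.0509), a call lost without any of 4 single animals. SCNN1B was at 35.2, 66.9 and 64.2 CPM against 30.1, 29.9 and 48.5 CPM and was not called (0.61, SE 0.28, edgeR q = 0.142). For both, animal 1 at 4 h lay within the 5-day range. The 2 lower genes were the pump regulator FXYD3 (-1.44), at 8.05, 7.48 and 5.99 CPM against 16.4, 19.1 and 23.2 CPM, and the scaffold NHERF1 (-0.67).

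Many lymphocyte transcripts were lower at 4 h, and many others were not called. Of 30 tested T cell genes 14 were lower, 1 was higher and 15 were not called, with a median log2 difference of -1.15. Of 12 tested B cell genes 5 were lower and 7 were not called, with a median of -0.85, and of all tested genes 5.87% were lower and 4.34% higher. In whole lung, fewer lymphocytes and less of these transcripts in each lymphocyte cannot be told apart. CCR7, the receptor that homes lymphocytes to lymph nodes, was at 1.15, 0.513 and 1.51 CPM at 4 h, at 6.45, 4.85 and 6.49 CPM at 5 days and at 4.33 to 6.93 CPM in saline (log2 difference -2.45, SE 0.38, edgeR q = 0.00579). CD3E, a chain of the T cell receptor complex, was at 1.15, 0.513 and 2.3 CPM against 7.13, 4.02 and 6 CPM (-2.10, SE 0.48). For both genes the 4 h lungs lay below every saline lung as well as every 5-day lung.

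These transcripts are rare in lung, and the counts of lower T cell genes ran from 6 to 15 and of lower B cell genes from 1 to 5 when 1 animal was left out. The fewest B cell calls, 1, came without the first 5-day animal, and the fewest T cell calls, 6, without the first or the third. The 1 T cell list gene called higher, IL7R, a survival receptor that other cells also make, was at 120, 45.5 and 123 CPM at 4 h against 48.5, 63.5 and 41.5 CPM at 5 days. It overlapped between times and its call was lost under 7 of the 15 alternative settings (log2 difference 0.91, SE 0.34, edgeR q = 0.0988). The summed CPM of the B cell list was 45 to 61 at 4 h and 80 to 83 at 5 days, while that of the T cell list, to which IL7R adds much, was 214 to 329 and 276 to 341.

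Chemokines and cytokines followed the lymphocyte genes in direction, with 8 of 21 tested lower at 4 h and 1 higher (42.9% called, beside 10.2% of all tested genes). LTB, a lymphotoxin that shapes lymphoid tissue, was at 0.496, 0.293 and 0.423 CPM at 4 h and at 3.57, 2.46 and 2.53 CPM at 5 days (log2 difference -2.74, SE 0.37, edgeR q = 0.00318). CCL8, a monocyte chemokine, was at 0.203, 0 and 0.302 CPM at 4 h and at 1.19, 1.96 and 1.28 CPM at 5 days, with saline at 0.337 to 2.67 CPM (-3.00, SE 0.65). Its 4 h values rest on 9, 0 and 5 reads. The other 6 lower genes were LTA (-2.56), CCL2 (-1.49), TNFSF10 (-1.14), IL33 (-0.92), IL15 (-0.90) and CSF1 (-0.64). The higher gene was IL16, a T cell chemoattractant, at 13.8, 17.1 and 16 CPM against 9.05, 9.33 and 8.33 CPM (0.81, SE 0.15).

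Cytokine receptors differed in both directions, 9 of 23 or 39.1% being called beside 10.2% of all tested genes. The 5 that were higher at 4 h included IL1RL1, the receptor of IL33, at 1.78, 1.17 and 1.63 CPM against 0.411, 0.133 and 0.415 CPM (log2 difference 2.28, SE 0.50), with IL18R1 (1.73), the decoy receptor IL1R2 (1.60), IL6ST (0.74) and IL7R. The 4 lower were CCR7, IL21R (-1.81), SOCS1 (-1.19) and TNFRSF1B (-0.83). In the NF-kappaB and toll-like receptor list, where 23.3% were called, 6 of 30 were lower, among them TLR3, a sensor of double-stranded RNA, at 1.89, 1.54 and 1.75 CPM against 4.66, 7.01 and 3.7 CPM (-1.56, SE 0.31), and NFKBIA alone was higher. RELA (-0.15), NFKB1 (-0.19) and REL (-0.05), the subunits of NF-kappaB, were not called.

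Macrophage and monocyte genes gave 3 higher (MERTK, CD163, FPR1) and 2 lower, TLR4 among them, of 21 tested (23.8% called, beside 10.2% of all tested genes). TLR4, the receptor of bacterial endotoxin, was at 3.49, 0.806 and 1.57 CPM at 4 h and 6.77, 6.34 and 4.22 CPM at 5 days (log2 difference -1.49, SE 0.48), and its call was lost without any of 5 single animals. The summed CPM of the list was 424, 196 and 318 at 4 h against 256 to 260 at 5 days, so animal 2 at 4 h stood below, and animals 1 and 3 above, the 5-day lungs. The part of cell number in this spread was not tested.

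**Figure D4:**
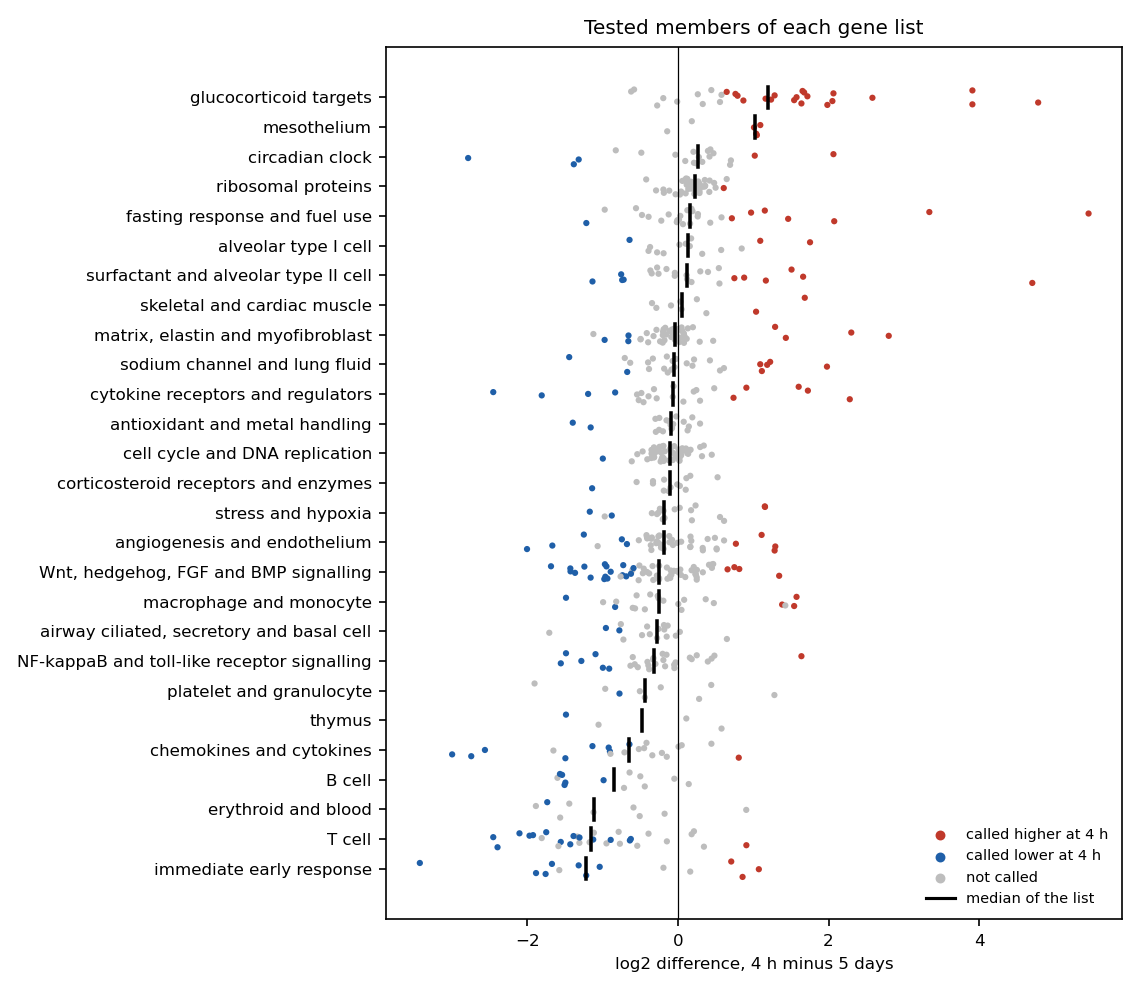
Log2 difference, 4 h minus 5 days, of every tested member of 27 gene lists, ordered by the list's median (black bar), with members called higher at 4 h in red, called lower in blue and not called in grey. The glucocorticoid targets (median 1.2) hold the most red points, and the T cell (-1.15) and chemokine (-0.64) lists lie mostly left of 0.

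Endothelial and angiogenic genes held 4 higher and 5 lower of 43 tested (20.9% called, beside 10.2% of all tested genes). APLNR, the apelin receptor of sprouting endothelium, was at 48.1, 59.6 and 68.6 CPM at 4 h, at 256, 281 and 168 CPM at 5 days and at 176 to 220 CPM in saline (log2 difference -2.0, SE 0.21, edgeR q = 0.00123). KDR, the main receptor for VEGF, was at 303, 201 and 294 CPM against 643, 607 and 648 CPM (-1.25, SE 0.15), and its co-receptors NRP2 (-1.67) and NRP1 (-0.74) and the endothelial diaphragm gene PLVAP (-0.68) were lower too. VEGFA, the ligand, was at 1214, 1616 and 1581 CPM at 4 h and 1715, 1596 and 1723 CPM at 5 days and was not called (-0.19, SE 0.12). The higher genes were THBS1, an inhibitor of vessel growth, at 202, 166 and 246 CPM against 90.5, 79.7 and 80.6 CPM (1.29, SE 0.15), the protease ADAMTS1 (1.28), the clotting factor carrier VWF (1.11) and the TGF-beta co-receptor ENG (0.77). The pan-endothelial genes PECAM1 (0.33) and CDH5 (-0.36) were not called.

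Developmental signalling genes were more often lower than higher at 4 h, 17 against 4 of 59 tested, beside 5.87% and 4.34% of all tested genes. BMP7, a bone morphogenetic protein ligand, was at 4.06, 4.11 and 7.98 CPM at 4 h and at 16.8, 20.4 and 14.4 CPM at 5 days, with saline at 13.4 to 15.3 CPM (log2 difference -1.69, SE 0.29, edgeR q = 0.00873). Other members of BMP signalling among the lower genes were the extracellular antagonists NOG (-1.43) and GREM1 (-1.37), the ligand BMP6 (-0.69) and the response genes ID4 (-1.43), ID1 (-0.74) and ID2 (-0.73). Of hedgehog signalling, the ligand IHH (-1.16) and the transcription factors GLI3 (-1.24) and GLI2 (-0.96) were lower, while HHIP (0.81), which binds and blocks the ligand, was higher.

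Of Wnt signalling, the ligand WNT7B (-0.95), the receptors FZD8 (-0.97) and FZD2 (-0.59), the R-spondin receptor LGR4 (-0.62), the T cell and Wnt factor TCF7 (-0.89) and the inhibitor NKD1 (-0.94) were lower. HGF, the ligand of MET, was the remaining lower gene (-0.98). The other higher genes were the FGF feedback inhibitor SPRY1 (0.66), the FGF-responsive factor ETV5 and the ligand FGF9. FGF9 was at 1.69, 0.953 and 2.18 CPM at 4 h against 0.457, 0.863 and 0.566 CPM at 5 days, and its call (log2 difference 1.34, SE 0.44, edgeR q = 0.0713) was lost without any of 4 single animals. The count of lower developmental genes was 9 to 17 when 1 animal was left out, lowest without the first 5-day animal.

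Of 48 matrix genes 4 were higher and 3 lower, a share of 14.6% called beside 10.2% of all tested genes. TIMP4, a metalloproteinase inhibitor, was at 2.25, 1.83 and 3.33 CPM at 4 h against 0.229, 0.432 and 0.377 CPM at 5 days (log2 difference 2.80, SE 0.42), and the metalloproteinase MMP19 (1.43) and the integrin subunit ITGA8 (1.29) were higher too. COL5A1, a fibrillar collagen, was at 107, 75.4 and 107 CPM at 4 h and 166, 242 and 161 CPM at 5 days (-0.97, SE 0.19). Its saline values of 82.5, 87.5 and 160 CPM split by study number as the 2 times do, the first 2 lungs being numbered with 15 and the third with 16. COL1A1 (-0.02), COL3A1 (0.06) and FN1 (-0.09) were not called.

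Of 53 tested genes of cell cycle and DNA replication, 1 was called (1.89%, beside 10.2% of all tested genes). It was CCND1, the G1 cyclin, at 61.1, 91.7 and 87.3 CPM at 4 h and at 194, 166 and 118 CPM at 5 days, with saline at 142 to 182 CPM (log2 difference -1.0, SE 0.21). TOP2A, a topoisomerase of dividing cells, was at 26.1, 25.7 and 29.9 CPM against 21.3, 33.2 and 42.2 CPM and was not called (-0.24, SE 0.23). The list's median log2 difference was -0.10.

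Immediate early genes were the list with the highest share called, 10 of 13 or 76.9% beside 10.2% of all tested genes, and 7 of these were lower at 4 h. FOSB, an AP-1 subunit, was at 1.96, 0.0733 and 0.302 CPM at 4 h and at 19.8, 9 and 1.58 CPM at 5 days, uneven within both groups (log2 difference -3.43, SE 1.03, edgeR q = 0.057). EGR2 was even, at 0.789, 0.66 and 0.605 CPM against 2.79, 2.66 and 2.3 CPM (-1.88, SE 0.32), and JUNB was at 139, 75.8 and 147 CPM against 407, 285 and 211 CPM (-1.32, SE 0.29). NR4A1, NR4A2, IER5 and ATF3 were the other lower genes. FOSL2 (1.07), ARC (0.86) and KLF6 (0.71) were higher. When 1 animal was left out, 4 to 6 genes of the list were lower and 2 to 3 higher. FOSB kept its call in 2 of those fits. In 5 of the 10 called genes the saline mean was nearer to the 4 h mean. The methods describe inflation of the lungs for pressure and volume curves after delivery at the later time and name the right lower lobe as the tissue frozen there. Such handling cannot be told apart from time in the 6 lungs compared. After Beta-Ac, the list's median log2 difference, 6 h minus 5 days, was 0.43, with 10 of the 13 genes positive and 3 negative. The part of handling was not tested.

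Lists of other cell types ranged from 11.1% to 66.7% called, beside 10.2% of all tested genes. Of 17 airway genes (11.8% called), FOXJ1, the ciliogenesis factor, and NGFR, a basal cell receptor, were lower at 4 h, FOXJ1 at 17.6, 12.1 and 8.16 CPM against 23.4, 23.7 and 27.2 CPM (log2 difference -0.96, SE 0.25). The summed CPM of the airway list was 424, 170 and 108 at 4 h and 228, 228 and 329 at 5 days, and without animal 1 of the 4 h group 12 of the 17 were called lower. Of 6 mesothelial genes 4 were higher at 4 h (66.7%), ITLN1 at 53, 63.6 and 54.4 CPM against 37.4, 25.8 and 17 CPM (1.09, SE 0.25) and MSLN, WT1 and BNC1 between 1.01 and 1.05, though 1 call was left in 5 of the 6 fits without 1 animal.

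Of 9 muscle genes 22.2% were called. TTN, the giant sarcomere protein, was at 47.9, 30 and 26.9 CPM against 11, 12.4 and 9.28 CPM (log2 difference 1.68, SE 0.23) and TNNI2 was higher too (1.04). The defining muscle genes MYH7, CKM, MYL2 and MYOD1 were under the read minimum. Of 9 tested red cell genes 1 was lower, as was 1 of 9 platelet and granulocyte genes. CD1C of the thymus list and the antioxidant enzyme NQO1 were lower with q of 0.0826 or more by edgeR, and each lost its call without any of 5 single animals. SLC39A8, a zinc importer, was the other lower gene of the antioxidant list (-1.16). Of 20 stress and hypoxia genes 20% were called: BNIP3 (1.16) and SLC2A1 were higher and HSPA1L (-1.17) and EGLN3 (-0.88) lower. Of 43 ribosomal protein genes, RPS25 alone was called (2.33%, log2 difference 0.61, SE 0.12) and the list's median was 0.23.

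Outside the lists, ADRA2B, an adrenergic receptor, was at 4.85, 4.25 and 1.81 CPM at 4 h against 0.137, 0.498 and 0.302 CPM at 5 days (log2 difference 3.49, SE 0.55). TAC1, the precursor of substance P, was at 8.27, 8.5 and 4.54 CPM against 0.64, 0.797 and 0.641 CPM (3.35, SE 0.34). FSTL4 (3.26, SE 0.39) and the glycosyltransferase B3GALT2 (3.19, SE 0.60) completed the 10 genes with the largest positive differences. B3GALT2 was uneven, at 9.17, 2.05 and 7.98 CPM at 4 h against 0.457, 1.1 and 0.528 CPM at 5 days.

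ATP6V0A4 (ENSMMUG00000006547), a subunit of the proton pump, had the largest negative difference of a gene with a symbol, at 0.631, 0.0733 and 1.57 CPM at 4 h and at 21.9, 17.4 and 18.4 CPM at 5 days (log2 difference -4.65, SE 0.54, edgeR q = 0.00168). Its saline lungs were at 0.407 and 0.539 CPM for the 2 animals numbered with 15 and at 10 CPM for the animal numbered with 16, and the 3 Beta-Ac lungs at 5 days, all numbered with 16, were at 8.47, 0.646 and 3.53 CPM. MARCHF4, a ubiquitin ligase, was at 0.924, 0.513 and 1.63 CPM against 5.44, 10 and 7.28 CPM (-2.88, SE 0.42), and its saline lungs, at 5.28 to 12.2 CPM, overlapped those at 5 days. IGSF11, an adhesion molecule (-2.75, SE 0.41), and EXOC3L2 (-2.71, SE 0.43) had the same pattern. The differences of CLDN2 (-3.15), ADD2 (-3.05) and CCDC170 (-3.61) rest on few reads, CCDC170 on 8, 0 and 0 reads at 4 h and 10, 42 and 45 reads at 5 days.

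Of genes without a symbol, ENSMMUG00000022489 had the largest positive difference, with 37.7, 1.91 and 38.2 CPM at 4 h and 0.189 to 0.332 CPM at 5 days. Its saline lungs were at 145 and 108 CPM for the animals numbered with 15 and at 0.249 CPM for the animal numbered with 16. In untreated lung too it thus split by study number, with 1 lung numbered with 16. Over all genes higher at 4 h, 57.2% had the same sign in saline lungs numbered with 15 minus the one numbered with 16. The share was 51.9% for the lower genes, beside 53% of all tested genes. ENSMMUG00000013864 had 26, 17 and 24 reads at 4 h and 0, 0 and 2 reads at 5 days. The 2 with the largest negative differences, ENSMMUG00000016091 and ENSMMUG00000010574, were uneven within groups, the first at 15.2, 102 and 13.2 CPM at 5 days and the second at 614, 308 and 107 CPM.

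The Beta-Ac lungs give a second pair of times. From 6 h to 5 days after Beta-Ac, 77% of the 709 genes higher with the clinical drug and tested in both had the same sign (median log2 difference 0.27), as did 65.9% of 982 lower genes (median -0.12), beside 53.2% of 16610 genes tested in both. Of genes over 4-fold higher with the clinical drug, 68 of 85 had the same sign with Beta-Ac, with a median log2 difference of 1.07, and of those over 4-fold lower 60 of 84 did, with a median of -0.17. With the 1 Beta-Ac animal numbered with 17 left out, the same-sign shares were 73.7% and 60.6%, beside 53.7% of all genes.

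**Figure D5:**
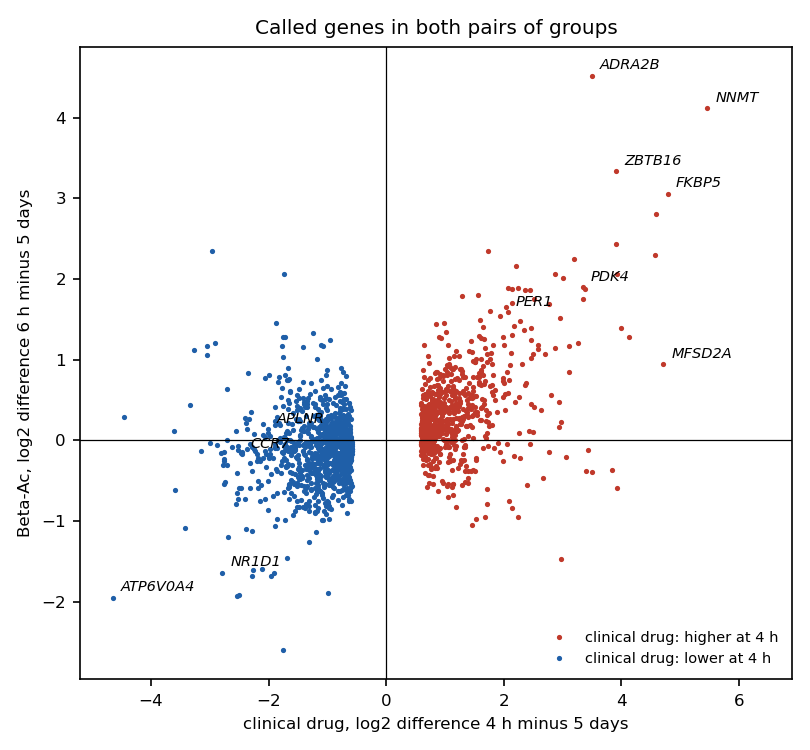
Each point is a gene called between 4 h and 5 days with the clinical drug and tested in both arms, with its log2 difference 4 h minus 5 days on the horizontal axis and its log2 difference 6 h minus 5 days after Beta-Ac on the vertical axis. Of the 709 red genes, higher at 4 h, 546 lie above 0 on the vertical axis, and of the 982 blue genes, lower at 4 h, 647 lie below it.

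By the same edgeR test 9 of 16972 genes (0.053%) were called between 6 h and 5 days after Beta-Ac, 8 higher (0.0471%) and 1 lower (0.00589%) at 6 h, with 1229 at an unadjusted p under 0.05. The same count was 192 by DESeq2. Of the 9, 5 were also called in the same direction with the clinical drug: ZBTB16, NNMT, PER1, the PI3-kinase regulatory subunit PIK3R1 and ENSMMUG00000001030. The Beta-Ac lungs at 6 h were uneven in the steroid targets: FKBP5 was at 18.5, 30.8 and 102 CPM at 6 h against 5.64 to 6.38 CPM at 5 days, and PDK4 at 89.1, 52.7 and 147 CPM against 14.5 to 37 CPM. MFSD2A was at 12.1, 10.2 and 24.7 CPM at 6 h and at 11.3, 8.43 and 4.7 CPM at 5 days, and CCR7 at 3.37, 9.09 and 4.9 CPM and at 6.48, 7.71 and 5.47 CPM. Groups overlapped for those last 2 genes and did not overlap for FKBP5 or PDK4. NR1D1 did not overlap either, at 5.06, 5.66 and 4.07 CPM at 6 h and at 15.7, 19.8 and 10.6 CPM at 5 days. The list medians after Beta-Ac were 0.86 for glucocorticoid targets, -0.10 for T cell genes and 0.06 for B cell genes. Since dose, drug and early time all differ between the arms, the values stand side by side and the difference between arms was not tested.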

How the data were processed

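Lung RNA-sequencing counts of 6 animals, 3 at 4 h and 3 at 5 days after the clinical drug, were analysed. The values are raw read counts per Ensembl gene that the authors deposited. They aligned paired reads to rhesus build MMUL1.0 (the processing notes name Bowtie 1.2.1.1, the methods a later major version) and counted them with featureCounts 1.5.1. The strand setting is not given in the sources used here, so a gene and an overlapping antisense partner cannot be told apart.

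A gene was kept where 3 or more of the 6 libraries had a minimum of 7 reads (16837 of 30246), and 71.9% of these matched a symbol in an Ensembl table. Members of the gene lists were also looked up by RefSeq synonym. A quasi-likelihood test was run in edgeR 4.0.16 (R 4.3.3) with TMM factors and group as the only term. Genes were called at 1.5-fold or more, p under 0.05 and Storey q under 0.1. CPM were scaled with TMM factors, saline and Beta-Ac lungs to the same reference library. Nothing in the labels names litters or batches. The p-values set the difference between the groups against the spread between these animals, and they cannot separate time from the study numbers. Depth was 14073002 to 45033799 reads. In counts simulated for this comparison over 16837 genes, 54% of 2-fold and 88% of 4-fold changes were called. Of the simulated calls, 10.1% were false. The simulation changed far fewer genes than were called in the data, so these shares need not hold for the real comparison.

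The comparison, the gene lists and the naming rule were chosen with earlier results of these data known. Named genes were the 10 largest called differences in each direction with a symbol, groups apart and a mean of at least 1 CPM in the higher group, 2 in each direction without a symbol, the called member with the largest difference in each direction of each list, and a fixed set of steroid, surfactant, sodium channel and proliferation genes. Of that set, KLF9, DUSP1, HSD11B1, SFTPA1 and MKI67 were not analysed here. Some members counted in the lists are not reported here by name. Further list members given with values were chosen after their values were seen. Lists of mitochondrial and sex-linked genes matched no identifier. Promoter motifs and hippocampus libraries were not analysed here. Alternatives were other scalings (RLE, upper quartile), other filters, Benjamini-Hochberg adjustment, no fold limit, DESeq2 1.42.0, edgeR's exact test, a fit of all 15 lung libraries and leaving out each animal. Figures were drawn with matplotlib 3.10.9.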

Additional observations from a re-analysis of the deposited data

How the results depend on the processing

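Against 1720 genes called between 4 h and 5 days (731 higher, 989 lower), the other scalings, filters, tests and the 15-library fit gave 1610 to 1815 and Benjamini-Hochberg adjustment 1278. Without the fold limit 2920 genes were called, 1453 of them higher. Leaving out 1 animal gave 925 to 2555 in all, 472 to 910 higher and 437 to 1645 lower. The total was 939 without the first 5-day animal, 925 without the second and 1142 without the third, fits with fewer samples, and the higher share moved from 42.5% to 53.5% without the first. After Beta-Ac, against 9 (8 higher, 1 lower), the count was 27 (22 and 5) with no filter, 47 (40 and 7) in the 15-library fit and 192 (141 and 51) by DESeq2, and 0 to 10 (0 to 7 higher, 0 to 3 lower) with 1 animal left out, 0 without any of the 5-day animals. The causes were not tested. The between-time minus within-time distance stayed above 0 under every alternative run, in a design where the exact p cannot go below 0.1.

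No named gene changed sign. Over named genes and settings, 987 values kept their side of the threshold, 68 lost it and 10 passed it. Calls with 2 or more such losses include those of IL7R, FGF9, SCNN1G, NQO1, CD1C, TLR4, FOSB, CLIC5, FOXJ1, PCYT1B, RPS25 and CCDC170. No paired analysis was possible because the groups hold different animals. With 3 animals a group, transcripts under about 1 CPM rest on few reads.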
